A study of Mus musculus with 36 samples.

Results

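The genes described here encode voltage-gated potassium, sodium and calcium channels, their close relatives and their auxiliary subunits. They are the rows of 2 deposited count tables whose symbol begins with Kcn, with Scn and a digit, or with Cacn, leaving out symbols joined by a semicolon. The steady-state table holds 98 such genes of 12580, and the Lyve1 table holds 95 of 12403, all of which are also in the steady-state table. By role, 60 encode pore-forming subunits of 14 families, 28 encode auxiliary subunits of 8 families, 8 encode silent potassium channel subunits, and 2 are noncoding antisense genes. The label is wider than the biology of voltage sensing, because the inward rectifiers (Kir), the leak channels (K2P) and the small and intermediate conductance calcium-activated channels (SK/IK) match the symbols but have no voltage sensor that opens the pore.

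All mice carried 1 Ribo-tag allele, in which the ribosomal protein Rpl22 gains an HA tag after Cre recombination, together with the CX3CR1-CCre fragment. Their genotype was CX3CR1-CCre+/-:Sall1-NCre+/-:Ribo-tag+/- for the line labelled as Sall1+ microglia, or CX3CR1-CCre+/-:Lyve1-NCre+/-:Ribo-tag+/- for the line labelled as Lyve1+ macrophages, so Cre forms from its 2 fragments in cells that use both drivers. Hemibrain homogenates were precipitated with anti-HA antibody or, as the control, with IgG, and the RNA was sequenced as 3' libraries by MARS-seq. Each line gave 6 HA and 6 IgG libraries without treatment (steady state), and 4 HA and 4 IgG libraries came from Lyve1 mice 12 hours after an intraperitoneal dose of 2.5 mg/kg LPS (lipopolysaccharide, a bacterial cell wall component that triggers inflammation). The ages of the mice are not given in the sources used here. The IgG libraries hold RNA of the whole homogenate, and the HA libraries also hold such RNA beside that of the tagged cells.

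Channels that open on depolarisation set the shape, timing and spread of electrical signals, and in brain most of them are known from neurons. Sodium channel alpha subunits (Nav) start the action potential, potassium channels end it and set the resting potential, and calcium channel alpha1 subunits (Cav) turn it into calcium entry and transmitter release. Auxiliary subunits bind the pores and change their number at the membrane, their gating or their place in the cell. Some potassium channels are known from glia: Kcnk13 and Kcnk6 (K2P) and Kcnn4 (IK) from microglia or macrophages, Kcnj10 and Kcnj16 from astrocytes, and Kcnj8 from pericytes.

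Library totals ranged from 603827 to 1696679 counts at steady state and from 362063 to 1380452 after LPS. Levels below are scaled CPM (counts divided by the size of their library, on a common scale), and they compare 1 gene between libraries, not 1 gene with another, because counts of 3' libraries are not divided by length. Libraries are named by the 2 numbers of their column. Microglial markers passed the test of HA against IgG in 10 of 11 tested genes in Sall1 mice, all higher, and border macrophage markers in 4 of 5 in Lyve1 mice, all higher. Microglial markers also passed higher in Lyve1 HA libraries, 5 of 11 at steady state and 6 of 10 after LPS. At steady state they summed to 980 CPM (907 to 1488) in Lyve1 HA and 640 CPM (556 to 817) in Lyve1 IgG libraries. In Sall1 mice 1 of 5 border macrophage markers passed, higher in HA. The steady-state Lyve1 libraries 2-1 and 2-2 stood apart: 7 Purkinje and granule neuron markers summed to 393 and 459 CPM in HA and 388 and 281 CPM in IgG, against 1564 to 1852 and 830 to 1052 CPM in the other Lyve1 libraries. The Sall1 HA libraries 3-1 and 3-2 had 2547 and 2289 CPM of microglial markers, against 3369 to 4398 CPM in the other 4. Y-linked counts were present in Sall1 libraries 1-1 to 2-2 and in all 8 LPS libraries and were at most 4 elsewhere, so the LPS comparison and this pattern cannot be told apart. In these bulk precipitates, fewer cells of a type and less RNA per cell cannot be told apart either.

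Channel genes made up a small and even share of every library. At steady state their median share was 0.791% (0.725 to 0.867) in Lyve1 HA, 0.902% (0.848 to 1.05) in Lyve1 IgG, 0.836% (0.808 to 0.901) in Sall1 HA and 0.936% (0.813 to 1.03) in Sall1 IgG libraries. After LPS it was 0.781% (0.757 to 0.806) in HA and 0.887% (0.857 to 0.935) in IgG libraries. The HA libraries thus held the lower median share in all 3 pairs, while the ranges overlapped in Sall1 mice and in Lyve1 mice at steady state. Pore genes summed to 3124 CPM (2679 to 3475) in Lyve1 HA and 3944 CPM (3435 to 4686) in Lyve1 IgG, and to 3300 CPM (3173 to 3635) in Sall1 HA and 4087 CPM (3238 to 4399) in Sall1 IgG libraries. Auxiliary genes lay closer together, with medians of 4723 and 5024 CPM in Lyve1 and 5214 and 5137 CPM in Sall1 HA and IgG libraries.

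After the filter on low counts, 73 of the 98 members could be tested in the steady-state table and 72 of the 95 in the Lyve1 table. Among the 8 members with the most counts were Kcnab2, Kcnh3, Cacnb3, Kcnmb4, Cacnb1 and Kcnip3, which apart from Kcnh3 are auxiliary. Cacnb3, a cytoplasmic calcium channel beta subunit, stood at 273, 337 and 377 CPM (lowest, median and highest library) in Lyve1 HA and 258, 351 and 377 CPM in Lyve1 IgG libraries. The Sall1 values were 291, 393 and 426 CPM in HA and 287, 386 and 400.3 CPM in IgG. The groups overlapped throughout, and the log2 ratio of HA to IgG was 0.00 ± 0.13 in Lyve1 mice (SE, adjusted p = 0.99, 95% interval -0.27 to 0.27) and 0.03 ± 0.13 in Sall1 mice (adjusted p = 0.907).

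The channels known from microglia and macrophages were near the limit of detection. Kcnk13 had 38 counts over the 6 Sall1 HA libraries and 32 over the Sall1 IgG libraries, and 33 and 39 in Lyve1 mice. Kcnn4 had 16 and 8 counts in Sall1 mice and 12 and 9 in Lyve1 mice, and the Kir gene Kcnj2 had 24 and 23, and 17 and 44. The pericyte channel gene Kcnj8 had 17 and 24 counts in Sall1 mice and 21 and 27 in Lyve1 mice. None of these 4 passed the filter. Tested without a filter, none was called between HA and IgG libraries at this depth. Kcnj2 in Lyve1 mice came nearest, lower in HA (-1.04 ± 0.44, adjusted p = 0.0944). Kcna3 and Kcnq1ot1, which were listed for the same cells and for imprinting, were not analysed here.

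Kcnk6, a K2P channel known for potassium efflux in macrophages, had counts of 14, 13, 12, 10, 5 and 4 in Sall1 HA libraries 1-1 to 3-2, against 4, 3, 4, 2, 8 and 4 in the IgG libraries. The first 4 HA libraries lay above all IgG libraries, and 3-1 and 3-2 did not. The gene did not pass the filter over all libraries, and without a filter its log2 ratio was 1.12 ± 0.39 (adjusted p = 0.0806). Once the Sall1 libraries with the first number 3 were left out, a choice made after seeing the data, it passed at 1.66 ± 0.46 (adjusted p = 0.0231). Those libraries were also the ones with fewer microglial markers, and the part of that in the result was not tested. Without a filter, the 1 low-count member to pass in any comparison was Kcne2, a KCNE subunit known from choroid plexus, with 65 counts in Sall1 HA and 24 in Sall1 IgG libraries (1.33 ± 0.39, adjusted p = 0.0288). Choroid plexus markers summed to 2520 CPM (2407 to 3223) in Sall1 HA and 1622 CPM (1433 to 1852) in Sall1 IgG libraries, and 1 of 5 passed, higher in HA. Their part in the Kcne2 value was not tested.

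In Sall1 mice, HA libraries held less of 5 channel genes than IgG libraries and more of none. They included the calcium channel pores Cacna1b and Cacna1h, the alpha2delta subunit Cacna2d3 and the potassium channel pore Kcnh2. Of 73 members tested, 5 passed, all lower, where 9.80% of all genes passed, 4.81% higher and 4.99% lower, so the share is near the background. At an unadjusted p under 0.05, 22 members passed, 2 higher and 20 lower, beside 23.98% of all genes, a share not split by direction here. DESeq2 called 6 and limma-voom 8.

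The median log2 ratio of the members tested was -0.19, against -0.01 over all genes, and 55 of 73 were below 0, against 50.7% of all genes. By role, the pore genes had a median of -0.23 with 39 of 44 below 0, and the auxiliary genes a median of 0.02 with 11 of 23 below 0. All 7 tested calcium channel alpha1 genes and all 4 sodium channel alpha genes were below 0, with medians of -0.37 and -0.65, while all 4 calcium channel beta genes were above 0, with a median of 0.13. Among markers of neurons measured beside them, none of 15 general ones passed, their median log2 ratio was -0.35, and their summed level was 8945 CPM (7643 to 10001) in HA and 10410 CPM (9892 to 12355) in IgG libraries, none of them at 0. Markers of inhibitory neurons had a median of 0.40, with 1 of 9 passing, higher, and those of Purkinje and granule neurons 0.25, with none of 7 passing. Their part in the result was not tested.

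Cacna1b, the pore of the N-type calcium channel of presynaptic terminals, measured 4.78, 11.4 and 18.6 CPM (lowest, median, highest) in Sall1 HA and 9.98, 22.2 and 32.1 CPM in Sall1 IgG libraries. The log2 ratio was -0.95 ± 0.28 (adjusted p = 0.0226). The median of the HA libraries lay near the lowest IgG library, yet the ranges overlapped. Cacna1h, a low-threshold T-type calcium channel, measured 25.9, 30.7 and 40.3 CPM in HA and 30.8, 44.2 and 63.2 CPM in IgG (-0.58 ± 0.18, adjusted p = 0.0321). Kcnh2, the ERG potassium channel of cardiac repolarisation, measured 74.3, 93.8 and 133 CPM in HA and 106, 134 and 165 CPM in IgG (-0.50 ± 0.14, adjusted p = 0.0242). Both genes again had ranges that overlapped. Cacna2d3, an extracellular subunit that aids the trafficking of calcium channels, measured 41.5, 49.3 and 79.3 CPM in HA and 44.2, 79.2 and 97.3 CPM in IgG (-0.52 ± 0.17, adjusted p = 0.0399). For this gene, too, single HA libraries reached into the IgG range.

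All 5 calls depended on single libraries. Without Sall1 HA library 2-2 none passed, with adjusted p of 0.0591 for Cacna1b, 0.0514 for Kcnh2, 0.0722 for Cacna1h and 0.0599 for Cacna2d3. Kcnh2 passed without any other single library. Cacna1b was also lost without HA 3-1 or 3-2 or IgG 1-1 or 1-2 (adjusted p 0.0509 to 0.0807), and Cacna1h without HA 3-2 or IgG 1-1 or 1-2 (0.0509 to 0.114). Cacna2d3 was also lost without HA 1-1, 1-2 or 2-1 or IgG 1-1, 1-2 or 3-2 (0.0599 to 0.12). The log2 ratios kept their sign in each of these cases. With the Sall1 libraries of first number 3 left out, the 5 genes remained and Kcnk6 was added. With the libraries holding Y-linked counts left out, which leaves 2 HA and 2 IgG libraries, no member passed. The count was also 0 when only Sall1 libraries entered the fit, and when libraries sharing a first number were summed. With the first number as a block, an alternative added after seeing the data, 13 members passed, all lower. Over all genes 1589 passed with this block, against 943 in any direction without it. Whether libraries sharing a first number come from 1 mouse is not stated in the sources used here.

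**Figure D1:**
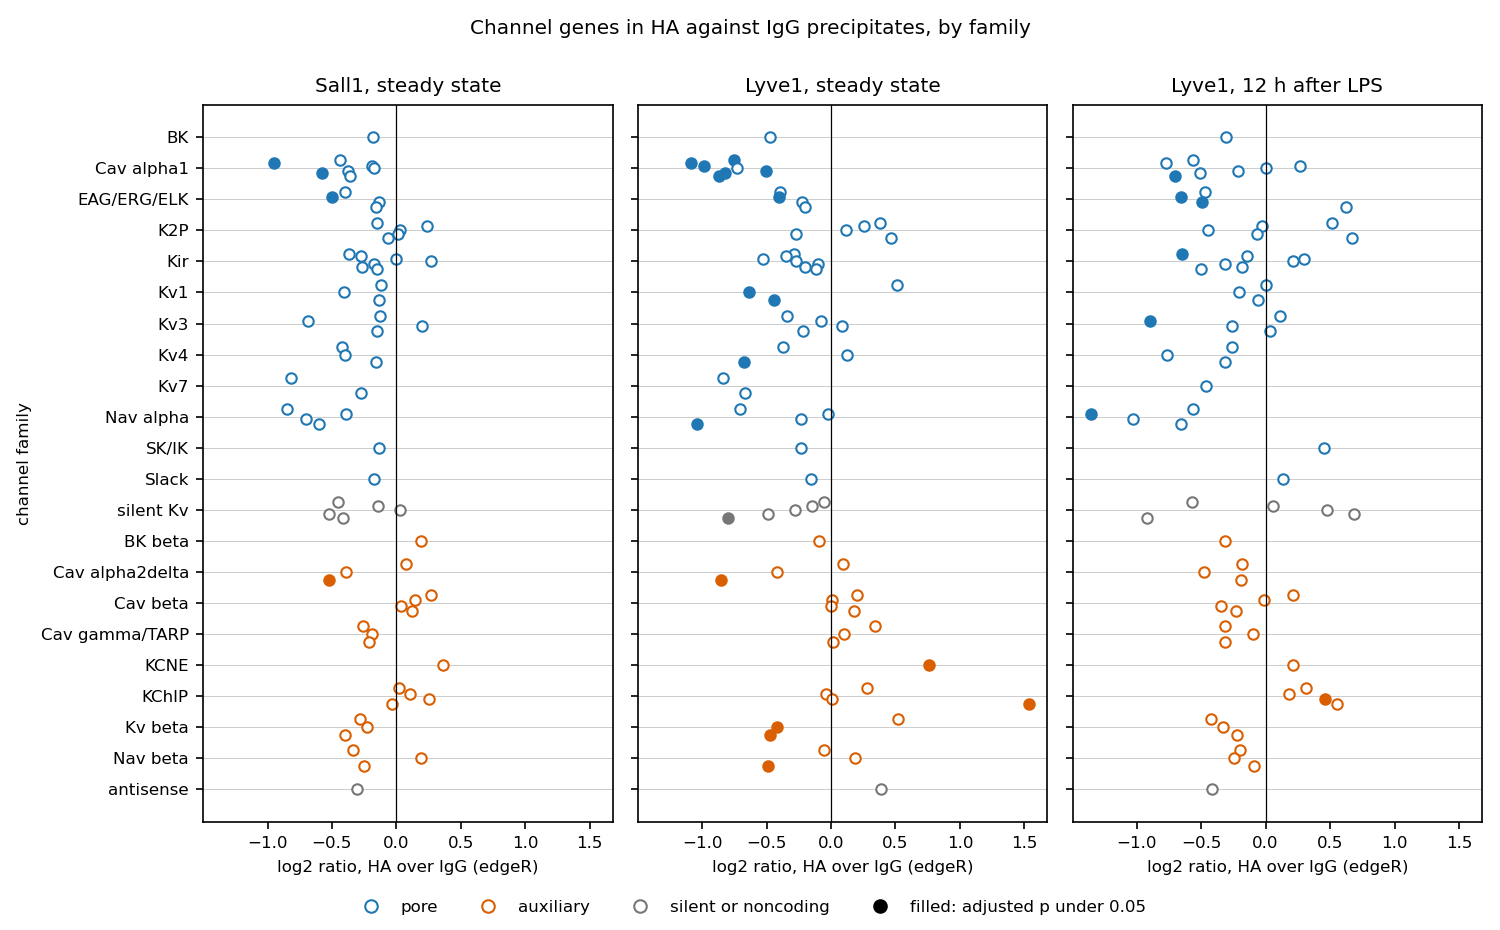
Log2 ratio of HA to IgG libraries (x axis) for channel genes that passed the filter, not all of which are drawn, by family (y axis), in Sall1 mice, Lyve1 mice and Lyve1 mice after LPS. Blue points are pore, orange auxiliary and grey silent or noncoding genes, and filled points passed at an adjusted p under 0.05. The calcium channel alpha1 genes lie left of 0 in both steady-state panels, and the filled points right of 0 are Kcnip4 and Kcne1l at steady state and Kcnip3 after LPS.

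In Lyve1 mice at steady state, 20 of the 73 members passed between HA and IgG libraries. The 18 lower genes included 6 of the 7 tested calcium channel alpha1 genes, the sodium channel Scn8a and the alpha2delta subunit Cacna2d3. Log2 ratios in these 8 ran from -0.50 to -1.08. The 2 higher genes were both auxiliary, namely Kcnip4 and Kcne1l. Over all genes, 25.7% passed, 11.7% higher and 14.0% lower. In this comparison 29 members and 37.3% of all genes had an unadjusted p under 0.05, DESeq2 called 20 and limma-voom 21.

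The members' median log2 ratio was -0.22, against 0.01 over all genes, and 52 of 73 were below 0, against 49.1% of all genes. Pore genes had a median of -0.35, with 37 of 44 below 0 and 13 passing, all lower. Auxiliary genes had a median of 0.01, with 2 passing higher and 4 lower of 23. Beside these values, the 15 neuronal markers summed to 8684 CPM (8074 to 9292) in HA and 10993 CPM (9229 to 11565) in IgG libraries, with 2 passing higher and 5 lower, and 5 of 9 markers of inhibitory neurons passed higher. The part of these markers in the result was not tested.

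Among the calcium channel pores, Cacna1i, a T-type channel known from thalamus, measured 60.5, 84.3 and 101 CPM in Lyve1 HA and 99.9, 155 and 201 CPM in Lyve1 IgG libraries. It was lower in HA by a log2 ratio of -0.87 ± 0.18 (adjusted p = 0.000557). The groups overlapped only in that HA 2-1, at 101 CPM, lay just above IgG 2-1, at 99.9 CPM. Cacna1h measured 18.2, 29.8 and 34.0 CPM against 44.2, 50.7 and 53.6 CPM (-0.82 ± 0.18, adjusted p = 0.00129), and Cacna1b 9.81, 14.6 and 21.3 CPM against 24.1, 28.3 and 43.0 CPM (-1.08 ± 0.27, adjusted p = 0.00372). For both, every HA library lay below every IgG library.

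Cacna1a encodes the P/Q-type channel that drives transmitter release and is abundant in Purkinje neurons. It measured 99.2, 159 and 189 CPM in HA and 158, 240 and 356 CPM in IgG (-0.75 ± 0.18, adjusted p = 0.0026). The ranges overlapped, with the lowest HA value in 2-2 and the lowest IgG value in 2-1, the libraries low in cerebellar markers. Cacna1c, the L-type channel of heart, smooth muscle and neurons, measured 6.84, 11.3 and 21.3 CPM in HA and 12.8, 27.5 and 34.2 CPM in IgG (-0.99 ± 0.25, adjusted p = 0.00337). The third T-type gene, Cacna1g, passed as well (-0.50 ± 0.18, adjusted p = 0.0373), and the L-type gene Cacna1d did not (-0.73 ± 0.31, adjusted p = 0.0796).

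Scn8a, the sodium channel of axon initial segments and nodes of Ranvier, measured 52.3, 55.7 and 89.5 CPM in HA and 99.2, 147 and 159 CPM in IgG libraries. Its log2 ratio was -1.04 ± 0.22 (adjusted p = 0.000673), and the groups did not overlap. The other 3 sodium channel alpha genes were below 0 without passing, such as Scn1a at -0.71 ± 0.28 (adjusted p = 0.0646) and Scn2a1 at -0.02 ± 0.30 (adjusted p = 0.966).

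Of the potassium channel pores, Kcna2, a delayed rectifier beside the nodes of Ranvier, measured 55.5, 73.9 and 100.3 CPM in HA and 77.4, 109 and 180 CPM in IgG (-0.64 ± 0.17, adjusted p = 0.00519), with ranges that overlapped. Kcna6, Kcnd3 and Kcnh2 were lower too, by log2 ratios of -0.44, -0.68 and -0.40. All 7 tested inward rectifiers were below 0 and none passed, whereas 4 of the 5 tested K2P genes were above 0 and none passed. The astrocytic inward rectifier Kcnj10 was at -0.29 ± 0.18 (adjusted p = 0.253), Kcnj16 at -0.27 ± 0.26 (adjusted p = 0.459), and the large conductance calcium-activated channel Kcnma1 at -0.48 ± 0.21 (adjusted p = 0.0994).

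Auxiliary genes went both ways. Cacna2d3 measured 46.8, 57.1 and 60.9 CPM in HA and 82.1, 101 and 120 CPM in IgG libraries (-0.85 ± 0.17, adjusted p = 0.000354), and Kcnab3, a cytoplasmic Kv beta subunit, 42.1, 60.9 and 65.4 CPM against 69.4, 81.4 and 89.3 CPM (-0.47 ± 0.14, adjusted p = 0.0106). The related Kcnab2 was at -0.42 ± 0.13 (adjusted p = 0.0163), and in all 3 genes every HA library lay below every IgG library. The sodium channel beta subunit Scn4b and the silent subunit Kcns2 were the other lower genes (-0.49 and -0.80).

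Kcnip4, a calcium-binding subunit of A-type potassium channels, had the largest log2 ratio among the 73 members tested in this comparison. It measured 30.5, 33.7 and 55.3 CPM in HA and 7.90, 11.5 and 25.0 CPM in IgG libraries, a log2 ratio of 1.53 ± 0.37 (2.90-fold, adjusted p = 0.00334). No IgG library reached the lowest HA library, and the highest values of both groups belonged to first number 2, with 55.3 CPM in HA 2-2 and 25.0 CPM in IgG 2-1. Kcne1l, a single-span subunit of the KCNE family, measured 13.3, 15.3 and 21.3 CPM against 5.58, 9.23 and 12.9 CPM (0.76 ± 0.25, adjusted p = 0.0252), also with no overlap. These levels rest on 7 to 20 counts a library.

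Leaving out the Lyve1 libraries with the first number 2 left 13 members that passed, 1 higher and 12 lower, all of them among the 20. Kcne1l (0.71, adjusted p = 0.134), Cacna1c (-0.82, adjusted p = 0.0727), Kcna6, Kcnh2, Kcns2 and Scn4b were among those that no longer passed. Kcne1l was also lost without HA 1-1, HA 2-2 or IgG 3-1 (adjusted p = 0.0552, 0.0577 and 0.0632). Cacna1a, Cacna1b, Cacna1h, Cacna1i, Cacna2d3, Scn8a and Kcnip4 passed under all 22 alternatives tried. With libraries sharing a first number summed, 8 members passed, 1 higher and 7 lower.

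**Figure D2:**
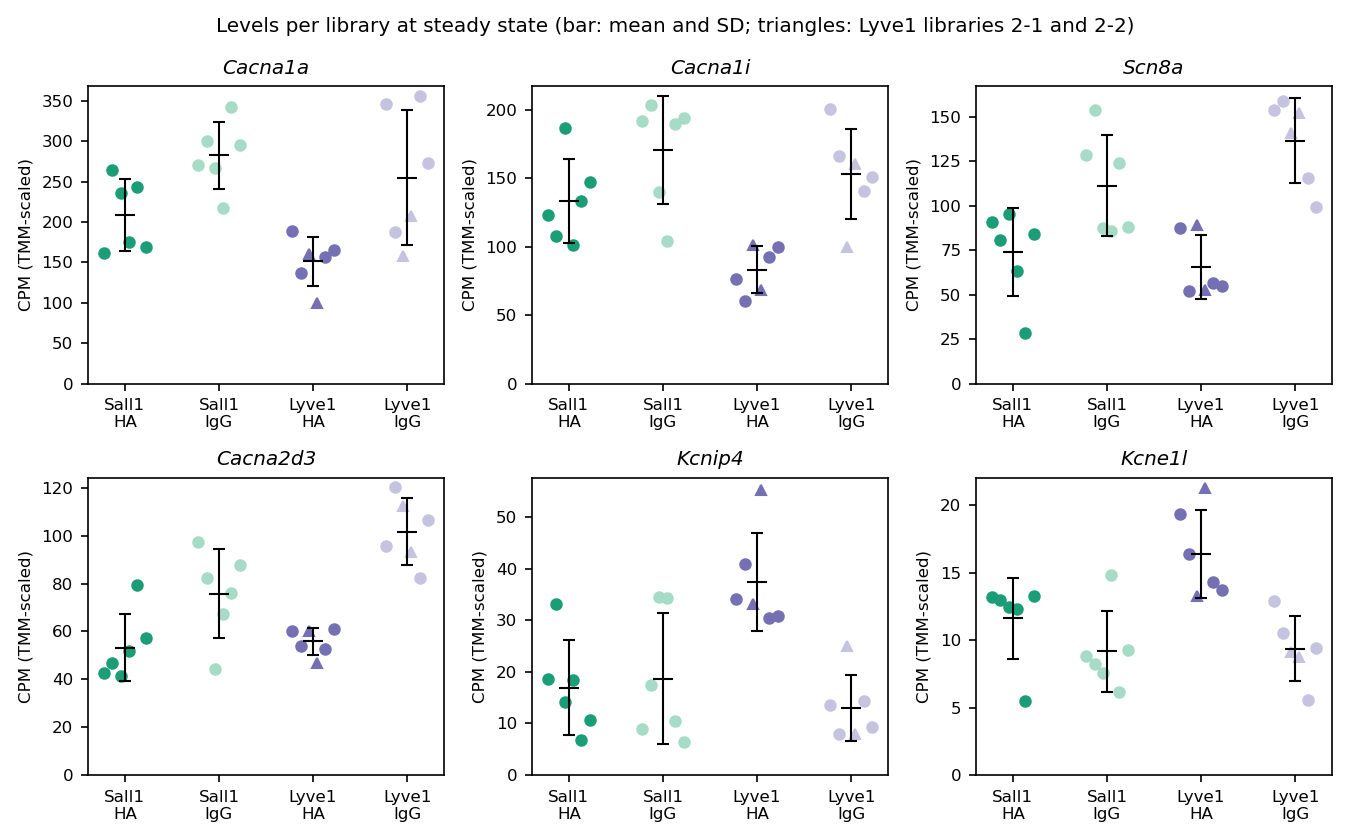
Levels in CPM (y axis) of 6 channel genes in each steady-state library of the 4 groups (x axis), with bars at the mean ± SD. Triangles mark the Lyve1 libraries 2-1 and 2-2. Scn8a and Cacna2d3 show separate Lyve1 HA and IgG clouds, Kcnip4 and Kcne1l lie higher in Lyve1 HA than in Lyve1 IgG libraries, and the Sall1 groups overlap in all 6 genes.

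The lower calls of the Sall1 line were all found again in the Lyve1 line. The 5 genes were 100% of the Sall1 list and 27.8% of the Lyve1 list of 18. Over all genes, 4.99% passed lower in Sall1 mice and 14.0% in Lyve1 mice, and the overlap of those lists is not given here. The comparisons share no library, but they were fitted together and share the estimate of spread. Across the 73 genes, which are not independent replicates, the log2 ratios of the lines correlated with r = 0.554 (rho = 0.580), against 0.638 over all genes tested. Of the members, 45 were below 0 and 11 above 0 in both lines. The test of the difference between the lines' HA to IgG ratios called no member by edgeR, DESeq2 or limma-voom, where 0.218% of all genes passed, 0.208% higher and 0.0104% lower. At an unadjusted p under 0.05 there were 3, beside 6.10% of all genes, with Kcnip4 the lowest (-1.57 ± 0.53, adjusted p = 0.598), which had a ratio of -0.03 ± 0.38 in Sall1 mice.

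Compared directly, Sall1 and Lyve1 HA libraries differed in no member by edgeR, where 1.40% of all genes passed, 1.24% higher and 0.166% lower, while 15 members, 8 higher and 7 lower in Sall1, and 15.6% of all genes had an unadjusted p under 0.05. Nearest was Cacna1i, at 102, 128 and 187 CPM in Sall1 HA and 60.5, 84.3 and 101 CPM in Lyve1 HA libraries (0.66 ± 0.18, adjusted p = 0.0535). The highest Lyve1 library lay just under the lowest Sall1 library. DESeq2 called this gene (0.66, adjusted p = 0.027), and limma-voom called it and Kcnip4. Kcnip4 measured 6.83, 16.3 and 33.2 CPM in Sall1 HA against its 30.5 to 55.3 CPM in Lyve1 HA libraries (-1.11 ± 0.36, adjusted p = 0.142), and 1 Sall1 library, 1-2, reached into the Lyve1 range.

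That count moved with the choice of Sall1 libraries. When those holding Y-linked counts were left out, so that 2 Sall1 HA libraries remained, 12 members passed, 6 higher and 6 lower, and so did 900 of all genes. The higher ones were Cacna1i, Kcna6, Kcnab2, Kcnip2, Kcnj12 and Kcnmb4, and the lower ones Kcna5, Kcnab1, Kcnd2, Kcnf1, Kcnip4 and Scn2a1. Without Sall1 HA library 1-2 alone, 3 passed, while leaving out the Sall1 libraries of first number 3 or the Lyve1 libraries of first number 2 gave 0.

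After LPS, Lyve1 HA and IgG libraries differed in 7 of 72 members, where 9.62% of all genes passed, 5.22% higher and 4.40% lower. Only Kcnip3 was higher in HA. Lower were the ERG and ELK channels Kcnh2 and Kcnh3, the sodium channel Scn2a1, Cacna1i, Kcnc2 and Kcnj10, which are all pores. At an unadjusted p under 0.05 there were 17 members, beside 24.5% of all genes, DESeq2 called 8 and limma-voom 6. The median log2 ratio was -0.22, against 0.00 over all genes, with -0.26 for pore genes (31 of 43 below 0) and -0.19 for auxiliary genes (17 of 23 below 0). Neuronal markers summed to 8692 CPM (8287 to 9190) in HA and 11299 CPM (10840 to 11699) in IgG libraries, with 3 of 15 lower, while 3 of 8 tested markers of inhibitory neurons passed higher. The part of these markers in the result was not tested.

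Kcnh2 measured 115, 101, 129 and 119 CPM in the LPS HA libraries 1-1, 1-2, 2-1 and 2-2 and 169, 229, 170 and 171 CPM in the LPS IgG libraries in the same order (-0.65 ± 0.16, adjusted p = 0.00723). Scn2a1, a sodium channel of axons and unmyelinated fibres, measured 20.7, 7.07, 17.6 and 4.56 CPM in HA and 37.9, 31.5, 29.0 and 37.5 CPM in IgG (-1.35 ± 0.34, 2.55-fold, adjusted p = 0.00829). In both genes the groups did not overlap, and the HA libraries of Scn2a1 spread widely, with 25, 8, 24 and 3 counts. Kcnh2 and Scn2a1 passed under all 17 alternatives tried for this comparison.

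Kcnh3 measured 370, 286, 337 and 406 CPM in HA and 459, 584, 495 and 436 CPM in IgG (-0.49 ± 0.13, adjusted p = 0.0148). Kcnc2, a fast delayed rectifier of fast-spiking interneurons, measured 25.7, 12.4, 29.3 and 9.13 CPM against 37.9, 31.5, 35.5 and 42.7 CPM (-0.90 ± 0.29, adjusted p = 0.0428). Neither gene had groups that overlapped. Kcnj10, which clears potassium into astrocytes, measured 67.9, 52.2, 73.2 and 35.0 CPM against 84.6, 57.2, 113 and 102 CPM (-0.65 ± 0.21, adjusted p = 0.0479), and Cacna1i 83.7, 85.8, 129 and 157 CPM against 149, 163, 262 and 155 CPM (-0.70 ± 0.22, adjusted p = 0.0379), both with overlap. Kcnip3, also known as a calcium-dependent transcriptional repressor, measured 290, 262, 257 and 242 CPM in HA and 184, 192, 179 and 209 CPM in IgG (0.46 ± 0.14, adjusted p = 0.0263), without overlap.

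These 5 calls turned on single libraries. Without LPS HA 1-2 the count fell to 2, with adjusted p of 0.0936 for Kcnh3, 0.156 for Kcnc2, 0.129 for Kcnj10, 0.14 for Cacna1i and 0.0582 for Kcnip3. Kcnh3 was also lost without IgG 1-2 (0.068), and Kcnip3 without HA 1-1 or IgG 1-1, 1-2 or 2-1 (0.0517 to 0.0853). Kcnc2 was lost without HA 2-2 or any 1 IgG library (0.0547 to 0.113), Kcnj10 without HA 2-2 or IgG 1-1, 2-1 or 2-2 (0.0796 to 0.2), and Cacna1i without HA 1-1 or IgG 1-2 or 2-1 (0.0524 to 0.226). The lower genes shared with the steady-state Lyve1 comparison were Cacna1i and Kcnh2, which are 11.1% of the 18 and 33.3% of the 6. Over all genes, 14.0% passed lower at steady state and 4.40% after LPS.

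Between LPS and steady state, 14 of 72 members passed in the HA libraries of Lyve1 mice, 6 higher and 8 lower. The higher ones were the silent subunit Kcng4, the pores Kcnj12, Kcnt1, Cacna1d and Cacna1h, and the Kv beta subunit Kcnab2. Lower were the auxiliary subunits Cacng3, Kcnmb4, Cacnb1, Kcne1l and Kcnip4, the pores Kcnj10 and Scn2a1, and the silent subunit Kcnf1. Over all genes, 17.5% passed, 9.46% higher and 8.0% lower. At an unadjusted p under 0.05 there were 26 members, beside 30.9% of all genes, DESeq2 called 15 and limma-voom 13. The median log2 difference was -0.13 with 46 of 72 below 0, against a median of -0.02 over all genes. Calcium channel alpha1 genes had 6 of 7 above 0 (median 0.48), and auxiliary genes 18 of 23 below 0 (median -0.16). In IgG libraries the members' median was -0.06 with 39 of 72 below 0, against a median of 0.01 over all genes.

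Cacng3 encodes a TARP, a calcium channel gamma relative that carries AMPA glutamate receptors to synapses. Scaled in the Lyve1 table, it measured 78.7, 96.5 and 125 CPM (lowest, median, highest) in steady-state HA libraries and 63.8, 39.8, 49.7 and 18.3 CPM in LPS HA libraries 1-1 to 2-2. It fell by 1.17 ± 0.21 on the log2 scale (adjusted p = 0.000106), and every LPS library lay below every steady-state library. This call held under all 19 alternatives. Kcnmb4, a beta subunit of neuronal BK channels, went from 246, 262 and 335 CPM to 217, 188, 178 and 215 CPM (-0.46 ± 0.13, adjusted p = 0.0112), and Cacnb1, a calcium channel beta subunit, from 253, 298 and 351 CPM to 226, 210, 249 and 227 CPM (-0.41 ± 0.12, adjusted p = 0.0173). Neither had groups that overlapped.

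Kcne1l, higher in HA than IgG at steady state, went from 13.5, 15.6 and 21.5 CPM to 9.94, 8.84, 9.51 and 3.04 CPM (-0.95 ± 0.31, adjusted p = 0.0285), without overlap. Kcnip4, likewise, went from 30.8, 34.1 and 55.8 CPM to 34.0, 15.03, 21.2 and 4.56 CPM (-0.90 ± 0.32, adjusted p = 0.0479), and here LPS library 1-1 stayed within the steady-state range. Since these comparisons share the steady-state HA libraries, the values are not independent of those above. Kcnj10 went from 61.4, 95.3 and 125 CPM to 67.9, 52.2, 73.2 and 35.0 CPM (-0.65 ± 0.19, adjusted p = 0.0181), while the summed astrocyte markers went from 1400.2 to 2453 CPM (medians). For Scn2a1 the steady-state values were 12.1, 26.7 and 40.0 CPM, against the LPS values above (-0.96 ± 0.31, adjusted p = 0.0292), and Kcnf1, which modifies delayed rectifiers, went from 29.0, 40.0 and 53.3 CPM to 39.8, 11.5, 18.3 and 22.8 CPM (-0.78 ± 0.26, adjusted p = 0.0359). All 3 had overlapping groups.

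Kcng4, a silent subunit that works only beside other potassium channel subunits, rose from 23.5, 44.7 and 53.3 CPM to 67.1, 83.1, 81.9 and 80.6 CPM, by 0.97 ± 0.25 on the log2 scale (1.96-fold, adjusted p = 0.00662). Kcnab2 rose from 552, 755 and 877 CPM to 930, 966, 980 and 1039 CPM (0.37 ± 0.12, adjusted p = 0.0246). In both, all 4 LPS libraries lay above all 6 steady-state libraries. In IgG libraries Kcnab2 was also higher after LPS without overlap, though it did not pass (0.31 ± 0.12, adjusted p = 0.0768). Its means there were 1231 CPM after LPS and 994 CPM at steady state. The difference between its HA and IgG responses was 0.06 ± 0.17 (adjusted p = 0.865). For Kcng4 the IgG response was 0.24 ± 0.26 (adjusted p = 0.621). Kcnj12, a strong inward rectifier, went from 21.5, 33.9 and 45.8 CPM to 48.9, 75.2, 44.6 and 80.6 CPM (0.83 ± 0.24, adjusted p = 0.0158), and the sodium-activated potassium channel Kcnt1 from 14.1, 21.2 and 25.4 CPM to 22.4, 40.7, 43.9 and 41.1 CPM (0.86 ± 0.29, adjusted p = 0.0331). In each of these pairs 1 LPS library lay within the steady-state range. Cacna1d went from 2.86, 6.38 and 12.7 CPM to 6.63, 23.0, 10.97 and 24.3 CPM (1.09 ± 0.36, adjusted p = 0.0347), and Cacna1h from 18.4, 30.05 and 34.4 CPM to 25.7, 39.8, 53.4 and 56.3 CPM (0.59 ± 0.21, adjusted p = 0.049), with overlap.

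Most of these calls were close to the threshold. Without LPS HA 1-2 only 3 members passed, and without LPS HA 1-1 there were 22. Leaving out the steady-state Lyve1 libraries of first number 2 left 6, namely Kcng4, Kcnab2, Cacna1h, Cacng3, Kcnmb4 and Cacnb1. Those lost were Kcnj12 (0.60, adjusted p = 0.0619), Kcnt1 (0.69, 0.0714), Cacna1d (0.78, 0.199), Kcnj10 (-0.62, 0.0674), Kcne1l (-0.93, 0.0768), Scn2a1 (-0.92, 0.0902), Kcnf1 (-0.78, 0.0827) and Kcnip4 (-0.77, 0.117). Kcng4 passed without any 1 library. With only the HA libraries in the fit 7 members passed, and with libraries sharing a first number summed 3 passed.

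Apart from Cacng3 and Kcng4, each call was lost without at least 1 single library. Without LPS HA 1-2, adjusted p was 0.0887 for Cacnb1, 0.0574 for Kcnmb4, 0.074 for Kcnj10, 0.0653 for Kcne1l, 0.147 for Scn2a1, 0.205 for Kcnf1, 0.156 for Kcnip4, 0.076 for Kcnj12, 0.0907 for Kcnt1, 0.196 for Cacna1d and 0.071 for Cacna1h. Without LPS HA 2-2, it was 0.0602 for Kcnab2, 0.0894 for Kcnj10, 0.107 for Kcne1l, 0.109 for Scn2a1, 0.0727 for Kcnf1, 0.155 for Kcnip4, 0.0668 for Kcnj12, 0.076 for Kcnt1, 0.132 for Cacna1d and 0.155 for Cacna1h. Without LPS HA 2-1, it was 0.0549 for Kcnab2, 0.0528 for Kcnmb4, 0.131 for Kcnf1, 0.0908 for Kcnip4, 0.12 for Kcnt1 and 0.209 for Cacna1h. Single steady-state HA libraries also decided 10 calls. These were Kcnab2 and Kcnj10 without 1-2 (0.0576 and 0.0527), Cacnb1 without 2-1 (0.0507), Kcne1l without 1-1 or 2-2 (0.0611 and 0.0619), and Kcnt1 without 2-1 or 2-2 (0.0798 and 0.056). The others were Scn2a1 without 1-1, 1-2 or 2-1 (0.0576 to 0.0735), Kcnf1 without 1-1, 1-2 or 2-2 (0.0643 to 0.0818), Cacna1d without 1-2, 2-1 or 2-2 (0.0675 to 0.0826), Cacna1h without 1-1, 1-2 or 3-1 (0.0629 to 0.107), and Kcnip4 without 1-1, 1-2, 2-1 or 2-2 (0.06 to 0.109).

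**Figure D3:**
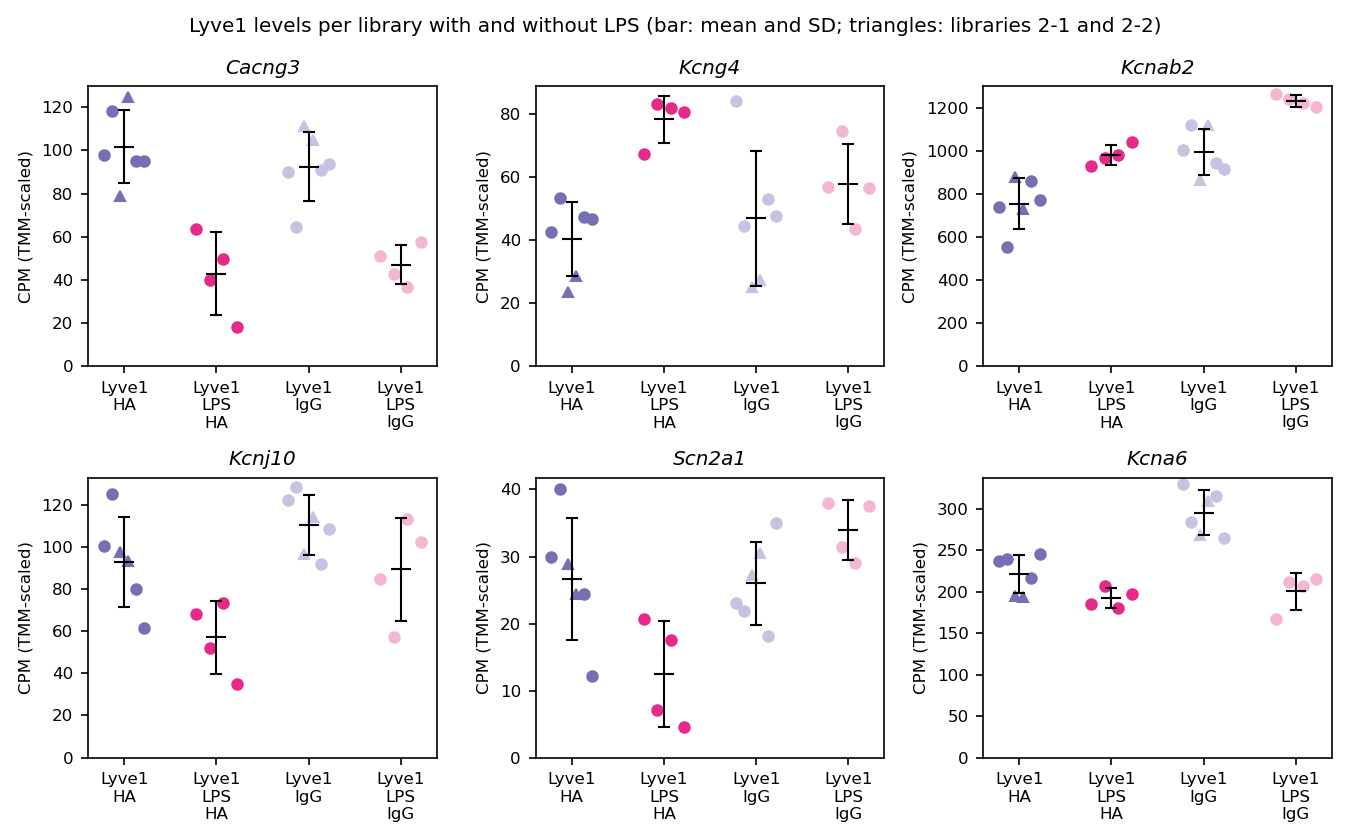
Levels in CPM (y axis) of 6 channel genes in each Lyve1 library at steady state and after LPS, in HA and IgG precipitates (x axis), with bars at the mean ± SD. Cacng3 lies lower after LPS in both precipitates, and Kcng4 lies higher in LPS HA than in steady-state HA libraries. Kcnab2 lies higher after LPS in both precipitates, and Scn2a1 is lowest in LPS HA libraries.

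In IgG libraries, LPS and steady state differed in 8 of 72 members, all lower, where 13.4% of all genes passed, 6.92% higher and 6.44% lower. They included the pores Kcna6, Kcnh4 and Kcnc4 and the auxiliary subunits Cacng3, Cacna2d3, Kcnip3 and Cacnb1. Unadjusted p lay under 0.05 for 17 members and 26.4% of all genes, DESeq2 called 8 and limma-voom 9. The IgG libraries report on RNA of the whole homogenate. Cell type markers moved in the same contrasts. Of 15 neuronal markers, 1 passed higher and 3 lower in HA, and 1 higher in IgG. For inhibitory neurons, 1 of 8 passed lower in HA and none in IgG. Oligodendrocyte markers passed lower in 4 of 8 in both HA and IgG libraries. Their precursors' 5 markers had 3 lower in HA, and 1 higher and 2 lower in IgG. Astrocyte markers passed higher in 4 of 9 in HA and 2 of 9 in IgG. Endothelial markers passed higher in 4 of 6 in HA, and in IgG 2 were higher and 1 lower. Microglial markers passed higher in 3 of 10 in HA, and in IgG 3 were higher and 3 lower. The summed monocyte and neutrophil markers went from 12.0 to 1028 CPM in HA and from 5.43 to 439 CPM in IgG libraries (medians). The monocyte and neutrophil sum held 4 genes, among them Lcn2, and 3 were tested, of which 2 passed higher in HA and 1 in IgG. The median log2 difference of these 3 was 2.04 in HA and 2.24 in IgG libraries. The sum does not separate more cells from more RNA per cell, nor show which cells the RNA came from. The part of these marker shifts in the channel results was not tested.

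Cacng3 was lower here too, from 64.5, 92.3 and 111 CPM to 51.0, 42.9, 36.9 and 57.3 CPM (-0.95 ± 0.22, adjusted p = 0.00238), and Kcna6 went from 265, 297 and 330 CPM to 168, 212, 207 and 216 CPM (-0.56 ± 0.12, adjusted p = 0.00161). Kcnip3 went from 216, 267 and 304 CPM to 184, 192, 179 and 209 CPM (-0.47 ± 0.13, adjusted p = 0.0102). In these 3 genes every LPS library lay below every steady-state library, and all 3 passed under all 19 alternatives. For Kcnip3, the gene with a higher HA to IgG ratio after LPS, the LPS difference in HA libraries was -0.03 ± 0.12 (adjusted p = 0.876). Cacnb1 went from 225, 252 and 311 CPM to 198, 183, 204 and 198 CPM (-0.40 ± 0.12, adjusted p = 0.0267), again without overlap.

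Kcnh4, an ELK channel of forebrain, fell from 9.59, 13.5 and 22.4 CPM to 1.46, 0, 10.5 and 2.09 CPM (-1.83 ± 0.49, adjusted p = 0.00878), with 1, 0, 8 and 2 counts after LPS. Cacna2d3 (-0.71 ± 0.19, adjusted p = 0.0076) and Kcnc4 (-0.57 ± 0.18, adjusted p = 0.0309) also passed, and these 3 genes had overlapping groups. Cacna2d3 was lost without LPS IgG 1-1 (adjusted p = 0.0542), Kcnh4 without LPS IgG 2-2 (0.0673), and Cacnb1 without LPS IgG 1-1, 1-2 or 2-2 (0.0591 to 0.0694) or the steady-state libraries of first number 2 (0.0876). Kcnc4 was lost without steady-state IgG 1-1 or 1-2 or LPS IgG 1-1, 1-2 or 2-1 (0.0595 to 0.115). The count stayed at 8 when the steady-state libraries of first number 2 were left out, with Cacnb1 lost and Kcnc1 gained.

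**Figure D4:**
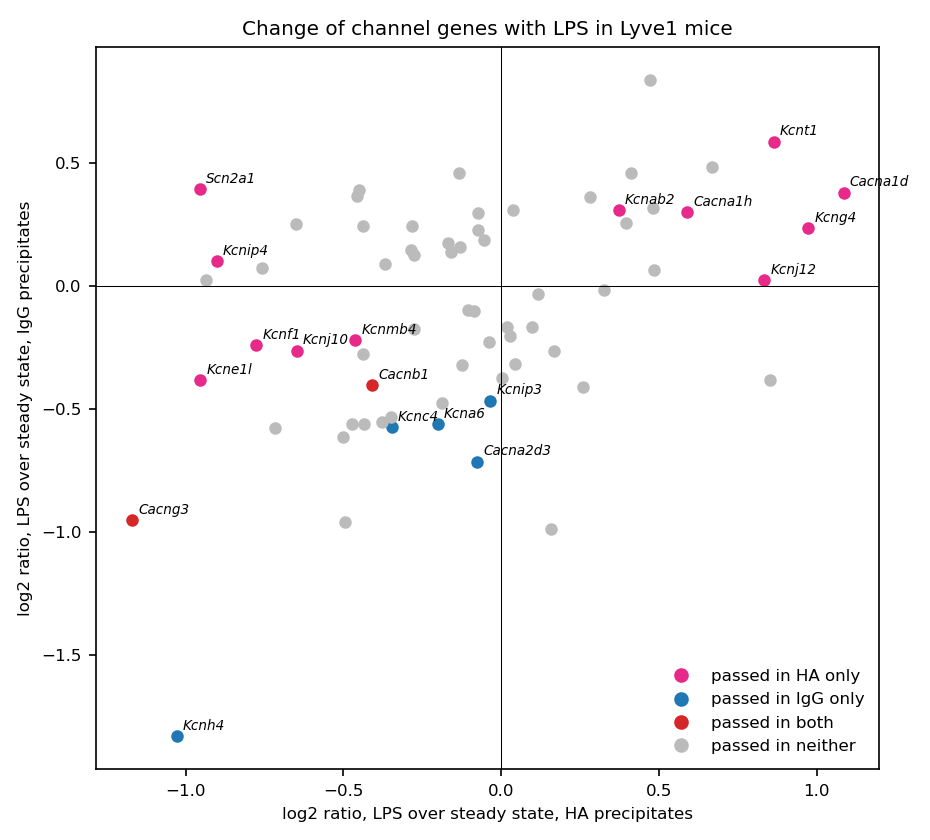
Log2 difference between LPS and steady state in HA libraries (x axis) and in IgG libraries (y axis) for channel genes tested in Lyve1 mice, not all of which are drawn, coloured by the precipitate in which they passed. Cacng3 and Cacnb1, the genes that passed in both, lie below 0 on both axes.

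Cacng3 and Cacnb1 were the genes lower with LPS in both precipitates, 25% of each list of 8. The test of the difference between the 2 responses called no member by edgeR, where 3.23% of all genes passed, 1.64% higher and 1.59% lower, and 11 members, 7 higher and 4 lower, and 20.7% of all genes had an unadjusted p under 0.05. Scn2a1 came nearest (-1.35 ± 0.42, adjusted p = 0.0632), being lower in HA after LPS and at 0.39 ± 0.28 in IgG (adjusted p = 0.403), and it was the gene that DESeq2 (adjusted p = 0.0377) and limma-voom (0.0434) called, as did edgeR with the first number as a block (0.0417). Without LPS HA 1-1 edgeR called 2 members. For Cacng3 the difference between the responses was -0.22 ± 0.30 (95% interval -0.85 to 0.42), and a p that misses the threshold does not show that they are alike.

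Genes that work with these channels but lie outside the symbol rule were listed as partners, and 23 of 26 were tested. Hvcn1, the voltage-gated proton channel of phagocytes, was higher in Sall1 HA than IgG libraries, by 2.16 ± 0.34 (4.46-fold, adjusted p = 6.08e-05). Its level in Lyve1 HA libraries was higher after LPS than at steady state (1.09 ± 0.38, adjusted p = 0.0426). The difference between its HA and IgG responses to LPS was -0.07 ± 0.54 (adjusted p = 0.959). That test did not separate the HA rise from the response in IgG libraries. In Sall1 mice the only lower partner was Cntnap1, an adhesion protein beside the nodes of Ranvier (-0.75 ± 0.17, adjusted p = 0.00356). In Lyve1 mice at steady state 7 partners were lower in HA and none higher, among them Cntnap1 (-1.20 ± 0.17), the sodium leak channel Nalcn (-0.99 ± 0.22), the hyperpolarisation-activated channel Hcn3 (-1.19 ± 0.26) and the node protein Nfasc (-0.66 ± 0.17). After LPS 5 partners were lower in HA than in IgG and none higher. Between LPS and steady state, 2 partners passed in HA libraries, both higher, and 5 in IgG libraries, 4 higher and 1 lower. The test of the difference between the HA and IgG responses to LPS called 1 of 23 partners. This was the hyperpolarisation-activated channel Hcn2, lower in HA relative to IgG (-1.17 ± 0.26, adjusted p = 0.0146).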

How the data were processed

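Ribo-tag precipitates of mouse hemibrain were sequenced by MARS-seq, per the labels' protocols. The authors deposited 2 tables of raw counts per gene, per the file headers. The build was mm9, per the submitters' processing notes, and the aligner is not given in the sources used here. The tables hold 32 libraries of 6 groups and share 12 steady-state Lyve1 libraries. The 28 library columns that matched no sample and the Sall1 LPS samples were not used here. Each table was fitted with all its groups by edgeR's quasi-likelihood test (edgeR 4.0.16, limma 3.58.1, R 4.3.3) with TMM scaling and a robust fit, after a filter at a minimum count of 10 and a total of 15, which kept 9619 of 12580 and 9680 of 12403 genes. Benjamini-Hochberg adjustment ran over all genes tested, with a threshold of 0.05. Every adjusted p in the text comes from this test unless DESeq2 (1.42.0) or limma-voom is named. CPM were computed from library sizes times TMM factors within each table, so a shared library's CPM differ slightly between tables. Errors of log2 ratios are SE.

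Where nothing says that libraries came from separate animals, p-values measure only the spread between these libraries, which may be technical. Named genes were 11 fixed genes (9 with a row), up to 10 members per direction and contrast with the smallest p among those passing, and the 8 members with the most counts. Others complete small counts, and their choice was made with their values in view. The members and lists were chosen with earlier results of these data known. Some members count in the totals, but their own results are not reported here. The code was tested on simulated data.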

Additional observations from a re-analysis of the deposited data

Results flagged for a closer look

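Among groups of 4 or 6 libraries of the genes that passed a test, 15 of 186 held a library that stood far from the others by Dixon's criterion, where chance flags about 1 in 20. After LPS in HA libraries, Kcne1l was low in 2-2 at 3.04 CPM (nearest 8.84), Kcng4 was low in 1-1 at 67.1 CPM (nearest 80.6) and Kcnt1 was low in 1-1 at 22.4 CPM (nearest 40.7). After LPS in IgG libraries, Kcnh2 was high in 1-2 at 229 CPM (nearest 171), Cacna1i high in 2-1 at 262 CPM (nearest 163), Cacna1a low in 1-1 at 295 CPM (nearest 324), Kcnab3 high in 1-1 at 84.6 CPM (nearest 63.6) and Kcnmb4 high in 1-2 at 297 CPM (nearest 240). In Sall1 HA libraries, Kcne1l was low in 3-1 at 5.47 CPM (nearest 12.3), Kcnj10 low in 3-1 at 28.7 CPM (nearest 71.4) and Cacna1d high in 2-2 at 17.7 CPM (nearest 10.9). In Sall1 IgG libraries, Kcne1l was high in 2-2 at 14.8 CPM (nearest 9.27), Kcnc2 low in 3-2 at 8.55 CPM (nearest 23.7), Kcnab2 low in 2-2 at 806 CPM (nearest 1067) and Kcnt1 low in 2-2 at 20.6 CPM (nearest 24.7). By edgeR over all libraries, no member passed either test of a difference between effects, and for the difference between LPS responses DESeq2 and limma-voom each called 1, Scn2a1.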

How the results depend on the processing

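Of 916 values of named genes under alternative settings, 731 kept their call, 185 lost it and none reversed. The depth limits the genes of few counts most. For Sall1 HA against IgG, 5 channel genes passed, and 8 passed with limma-voom, 0 with libraries of one first number summed, 0 with only the groups compared and 0 without the libraries with Y-linked counts. For Lyve1 HA against IgG, 20 passed, 8 when summed and 13 without the steady-state libraries of first number 2. For Sall1 against Lyve1 HA, 0 passed, 1 with DESeq2's size factors, 1 with its Wald test, 2 with limma-voom and 12 without the libraries with Y-linked counts. After LPS, HA against IgG gave 7, and 2 when summed. The LPS response in HA gave 14, 3 when summed, 7 with only the groups compared and 6 without first number 2. The difference between the LPS responses gave 0, 1 with the DESeq2 Wald test and 1 with limma-voom.

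Leaving out 1 library at a time gave 0 to 7 genes for Sall1 HA against IgG, 16 to 20 for Lyve1, 0 to 3 for Sall1 against Lyve1 HA, 0 to 0 for the difference between the lines, 2 to 9 after LPS, 3 to 22 for the LPS response in HA, 5 to 10 in IgG and 0 to 2 for the difference between the responses. The 5 in IgG came without LPS IgG 1-1, 1-2 or 2-2.

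The replicate number as a block gave 12 genes for Sall1 HA against IgG, 23 for Lyve1, 3 for Sall1 against Lyve1 HA, 8 after LPS, 19 and 12 for the LPS response in HA and IgG, and 0 for both differences. Same-numbered HA and IgG libraries correlated from -0.01 to 0.35 in Sall1, 0.02 to 0.29 in Lyve1 and -0.10 to 0.12 after LPS. Of these correlations, 5 of 6, 5 of 6 and 1 of 4 were over 0.1, and 3 of 6, 2 of 6 and 2 of 4 libraries correlated best with their own number. The labels do not match the HA and IgG libraries of a brain, so the numbers were not taken as pairs. The correlations do not exclude pairing. The best match shared the first number in 5 of 6, 5 of 6 and 3 of 4 libraries, a hint from the data and not the design. The first number as a block, added after seeing the data, gave 13, 25 and 9 genes for HA against IgG in Sall1, in Lyve1 and after LPS, 0 for the difference between lines and 1 for that between LPS responses.

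Medians of log2 values also moved. For pore genes, Sall1 HA against IgG was -0.47 without the libraries with Y-linked counts, Sall1 against Lyve1 HA was -0.0190 with limma-voom and -0.0191 without first number 3, the difference between lines was 0.18 without first number 3, the LPS response in HA was 0.0193 over genes of at least 30 counts, and that in IgG was -0.21 without first number 2. For auxiliary genes, Lyve1 HA against IgG was -0.0386 over genes of at least 30 counts and 0.0655 without first number 2, Sall1 against Lyve1 HA was 0.0862 over such genes, the LPS response in HA was -0.25 with limma-voom, and that in IgG and the difference between responses were -0.20 and -0.0833 over such genes. The cause was not tested. The alternative that removes a trend on protein length was not run, since no protein lengths were used here.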
